A study of Mus musculus with 6 samples.

Results

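The 42 genes described here are interferon-stimulated antiviral genes, chosen by symbol from common knowledge of the antiviral response. No measured value entered the rule, but earlier results of these data were known when it was made. They stand among 55254 gene symbols of the deposited table, 18430 of which had at least 1 count. Each gene was represented by the transcript with its highest mean count. All 42 passed the filter on low counts, as did 11875 genes in all.

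The libraries came from bone marrow-derived macrophages (BMDMs) of C57BL/6J mice, grown from the marrow of young adults for 10 days in medium with L929-conditioned supernatant. Control cells had both hnRNPD alleles floxed at exons 3 and 4 (hnRNPD fl/fl) and no Cre. The gene encodes the AUF1 family of RNA-binding proteins. M-Δx3,4 cells had the same floxed alleles together with LysM-Cre, a recombinase driven by the lysozyme 2 locus in macrophages and granulocytes, so that deletion takes place as the cells mature. Both groups of 3 libraries were treated with 100 ng/ml LPS for 4 hrs, and untreated cells were not analysed here. The induction of these genes by LPS was therefore not measured, and every value is a level reached after LPS. The samples carry numbers and no animal or batch names, so the p-values measure the spread between 6 libraries, which may be partly technical.

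In macrophages, LPS is sensed by TLR4, and its endosomal branch through TRIF and IRF3 switches on the gene of interferon beta. Secreted interferon beta binds IFNAR on the same and neighbouring cells, and JAK kinases then set off assembly of the ISGF3 complex. ISGF3 binds interferon-stimulated response elements in promoters of interferon-stimulated genes, and its binding at the genes treated here was not measured. Their products sense viral RNA, block translation, degrade RNA, alter membranes or act through the ubiquitin-like protein ISG15. AUF1 proteins are known for binding AU-rich elements in 3′ untranslated regions. The question of the comparison is whether cells lacking AUF1s hold different levels of these mRNAs after LPS.

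The promoters of several of these genes carry the core word of the response element close to the start, and 6 of them are shown because ISGF3 is known to bind words of this kind. The word searched was GAAA, any 2 bases, GAAA, or its reverse complement TTTC, any 2 bases, TTTC, in the 250 bases before the start of RefSeq genes on GRCm38.p6, on both strands. It was present in 9 of the 31 genes with a promoter sequence (29.0%) and in 936 of 27025 genes in all (3.46%). Capitals mark the matched letters, overlapping matches run together, and each sequence is written 5′ to 3′ in the direction of its gene. The distance is that from the first matched base to the start.
Isg15, chr4:156200871-156200900, minus strand, 78 bases before the start: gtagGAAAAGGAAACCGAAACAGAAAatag
Ifit1, chr19:34640785-34640814, plus strand, 104 bases before the start: TTTCACTTTCcagtctcagTTTCAGTTTCt
Ifit3, chr19:34583363-34583392, plus strand, 156 bases before the start: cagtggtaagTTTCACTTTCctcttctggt
Rsad2, chr12:26456553-26456582, minus strand, 120 bases before the start: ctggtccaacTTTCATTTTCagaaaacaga
Oas1a, chr5:120907526-120907555, minus strand, 20 bases before the start: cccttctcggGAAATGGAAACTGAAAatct
Bst2, chr8:71537580-71537609, minus strand, 130 bases before the start: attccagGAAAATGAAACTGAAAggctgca
Isg15 held 3 overlapping matches, and Ifit1, Oas1a and Bst2 held 2 each in the window shown. Ifit3 had a further match nearer to its start, and Oas3, Slfn5 and Trim30a were the other genes with the word. The 9 genes with the word had a median log2 fold change between M-Δx3,4 and control of 0.28 (from -0.77 to 0.85), and the 22 genes with a promoter sequence that lacks it had 0.06 (from -0.80 to 0.72). A match of these letters does not show that a factor binds there.

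On the deposited TPM scale, a level per base of counted region, Isg15 stood above all the other genes after LPS. Reads came from 3′ ends, so this division lowers genes with long regions, and the order is not one of abundance. By normalized counts Rsad2 had a mean of 13768 over a region of 3862 bases, and Isg15 12798 over 378 bases. Samhd1 (5889) likewise had more counts than Usp18 (4406). Isg15, the ubiquitin-like modifier, had 2169 ± 709 in control and 2769 ± 913 in M-Δx3,4 (mean TPM ± SD, n = 3). Its lowest library (1368 TPM) was above the highest library of the next gene, Usp18 (589 TPM), the protease that removes ISG15 from proteins. Ifit3 followed with 443 ± 321 in control and 537 ± 125 in M-Δx3,4, and its control libraries ranged from 139 to 778 TPM. Bst2, the tether that holds budding virions at the surface, had 356 ± 75.4 in control and 323 ± 125 in M-Δx3,4, and Rsad2 had 186 ± 60.9 in control and 338 ± 168 in M-Δx3,4. Of the 42 genes, 13 had a mean above 100 TPM and 34 above 10 TPM. At the lower end stood Dtx3l, with 2.27 ± 0.336 in control and 3.76 ± 1.9 in M-Δx3,4, and Phf11d, with 1.11 ± 0.552 in control and 0.85 ± 0.39 in M-Δx3,4. Between neighbours in this order the ranges of the 6 libraries overlapped in 39 of 41 pairs, so the order is firm only at a few steps.

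**Figure D1:**
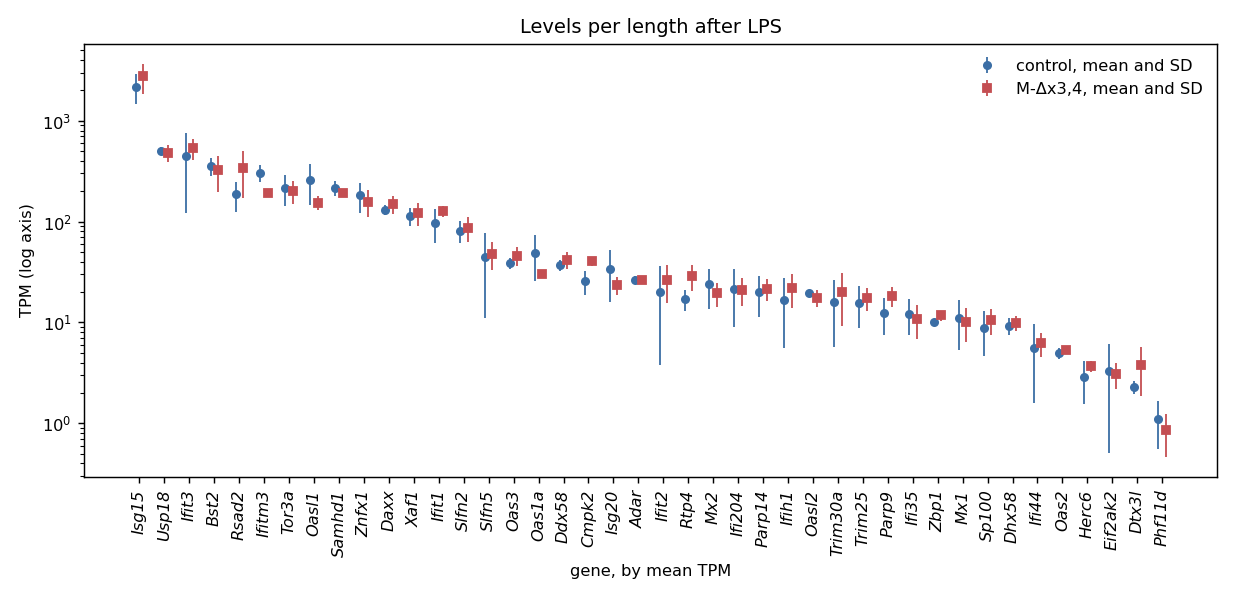
Mean TPM of the 42 genes after LPS on a log axis, in order of the mean over all 6 libraries; circles are control and squares M-Δx3,4 BMDMs, with the SD of 3 libraries. Isg15 stands above 1000 TPM, 34 genes lie above 10 TPM, and the error bars of the 2 groups overlap for most genes.

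As a sum over the 42 genes, the normalized counts came to 72355, 64494 and 54739 for control replicates 1 to 3 and to 57604, 75216 and 87355 for M-Δx3,4 replicates 1 to 3, so the groups overlapped. This was 2.49%, 2.20% and 1.88% of all normalized counts of the control libraries, and 2.05%, 2.54% and 2.97% of those of the M-Δx3,4 libraries. Rsad2 and Isg15 alone made up 28.9% to 35.9% of the sum in control and 30.5%, 47.7% and 48.6% in M-Δx3,4 libraries. Without that pair the sums were 47772, 41371 and 38935 in control and 40037, 39374 and 44877 in M-Δx3,4, again overlapping.

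The checks of the series concern the deletion, the cell type and the libraries. Normalized counts of the p37 transcript of Hnrnpd were 178, 104 and 69.6 for control and 52.8, 12.6 and 16.0 for M-Δx3,4 replicates 1 to 3. Its log2 fold change was -2.11 (SE 0.54), and the groups did not overlap. By edgeR its unadjusted p was 0.0014 and its adjusted p 0.984, and the smallest adjusted p of all transcripts was 0.824. Even the deleted gene thus did not pass an adjusted threshold of 0.05. All 10 macrophage markers were present, with summed levels from 15736 to 25642 in control and from 15952 to 23243 in M-Δx3,4 libraries. Ctsd was the largest part of each sum (8292 to 18925). Of the 10, only Lyz2 had groups that did not overlap, and it was lower in M-Δx3,4 libraries (log2 fold change -0.91, SE 0.30). The total counts over all transcripts ran from 5852374 to 9008878 per library. Control replicates 1 and 3 differed most from each other, with a Pearson correlation of log2 counts across 4723 genes of 0.764. Control replicate 3 was the library furthest from the rest, at 0.764 to 0.895 with every other library. Control replicate 1 correlated at 0.904 to 0.971 with all but control replicate 3. The difference between control replicates 1 and 3 went with the GC content of the transcript ends (Spearman's rho -0.62 across 4716 genes, which are not independent). The values that bear on it stand beside the results.

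The antiviral genes lay on both sides of 0, with a few higher and a few lower in M-Δx3,4 BMDMs and none past the adjusted threshold. Across the 42 genes the median log2 fold change was 0.07, against -0.01 over the 11875 genes tested. There were 25 genes above and 17 below 0 (40.5% lower, against 50.5% of all genes). By edgeR's quasi-likelihood test 4 of the 42 had an unadjusted p under 0.05 (9.52%), 2 higher (Rsad2 and Rtp4) and 2 lower (Oasl1 and Ifitm3). Among all genes the share was 3.98%, with 1.45% higher and 2.53% lower. None had an adjusted p under 0.05 over the 32475 transcripts tested, the adjusted p of the 42 genes running from 0.984 to 0.998. The p37 transcript of Hnrnpd, the deleted gene, also had an adjusted p of 0.984 by edgeR, so this threshold says little about the 42. DESeq2 and limma-voom also gave none, with 6 and 5 of the 42 at an unadjusted p under 0.05, against 3.01% and 3.23% of all genes by the same tests. In 5 of the 42 (11.9%) the 3 libraries of one group lay wholly above those of the other, against 8.44% of all genes. These were Rtp4 and Cmpk2, higher in M-Δx3,4, and Ifitm3, Oas1a and Samhd1, lower. For these 5 the exact permutation test, two-sided, gave p = 0.1, the smallest that 3 against 3 libraries allow.

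**Figure D2:**
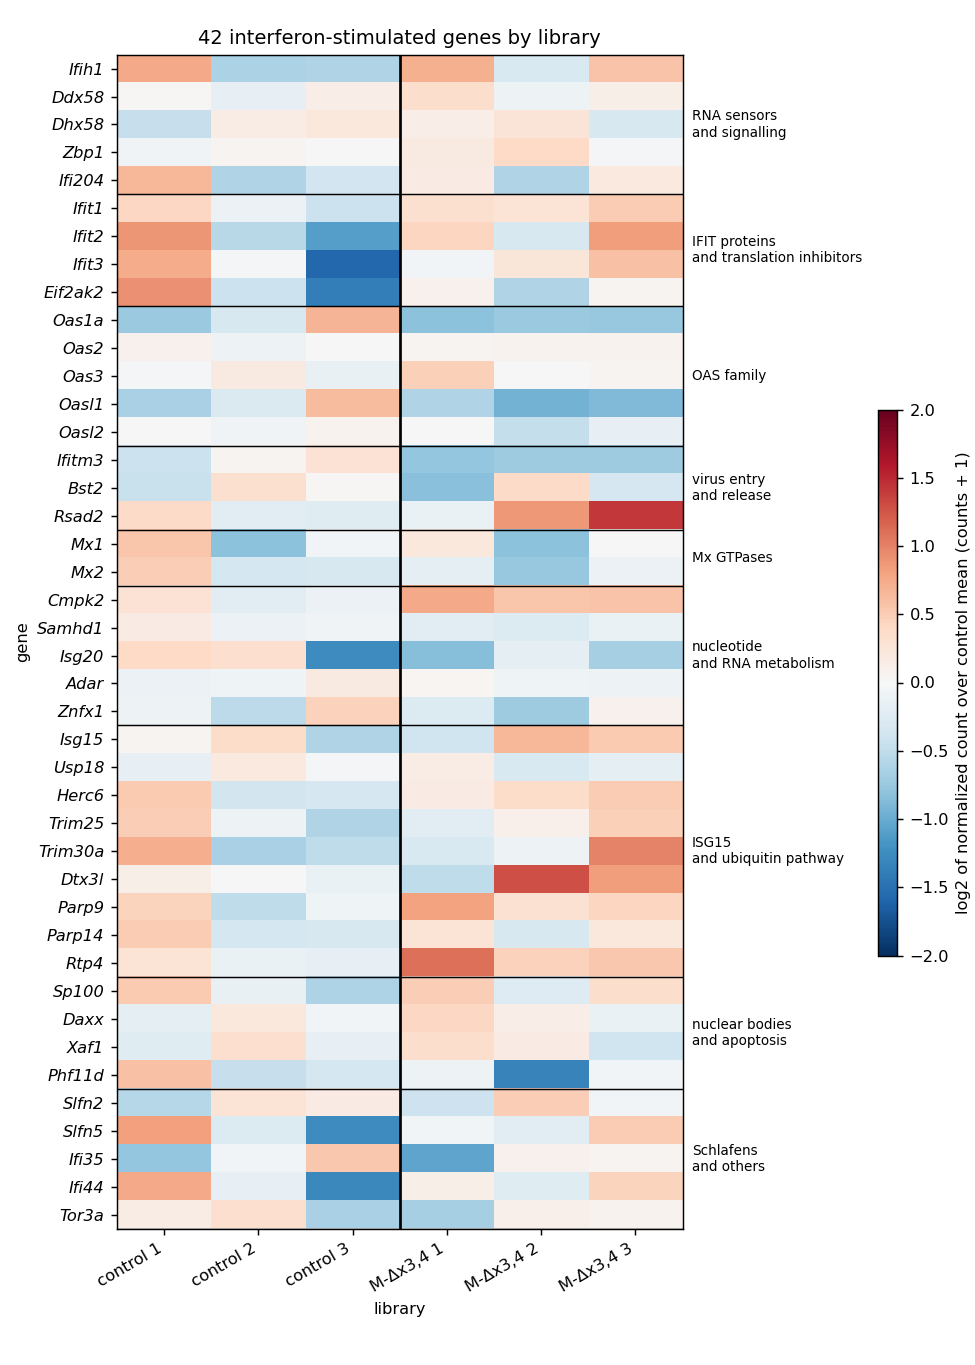
Normalized counts of the 42 genes in each library as the log2 of their ratio to the control mean (1 added to both), in 9 groups by role, with control libraries left and M-Δx3,4 libraries right of the line. Control replicate 1 is red and control replicate 3 blue for Ifit2, Ifit3, Slfn5 and Ifi44, and the reverse for Oas1a and Oasl1.

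Rsad2 encodes viperin, an iron-sulfur enzyme at the endoplasmic reticulum that makes a chain-terminating nucleotide and restricts virus budding. It is read from 3′ UTR regions at chr12:26442504-26452354 on the minus strand (mm10). Its normalized counts were 12769.9, 8426 and 8310.2 in control replicates 1 to 3 and 9002, 17923 and 26179 in M-Δx3,4 replicates 1 to 3. M-Δx3,4 replicates 2 and 3 were above every control library, while replicate 1 lay inside the control range. The means were 9835 ± 2542 and 17702 ± 8591 (SD, n = 3), with a log2 fold change of 0.85 (SE 0.36, unadjusted p = 0.033, adjusted p = 0.984 by edgeR). It stayed positive when each library was left out, from 0.45 without M-Δx3,4 replicate 3 to 1.16 without M-Δx3,4 replicate 1. The unadjusted p was then 0.263 without M-Δx3,4 replicate 3, 0.0704 without M-Δx3,4 replicate 2 and 0.098 without control replicate 2.

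Cmpk2, a mitochondrial nucleotide kinase gene, lies 25.8 kb from the Rsad2 regions on the opposite strand (chr12:26478130-26480086). Its counts were 844, 590.5 and 633 in control and 1172, 1018 and 1023 in M-Δx3,4 libraries, so every M-Δx3,4 library was above every control library. The log2 fold change was 0.64 (SE 0.30, unadjusted p = 0.051, adjusted p = 0.984 by edgeR) and kept between 0.54 and 0.81 with each library left out. With the GC trend of each library removed, an alternative chosen after the data were seen, the value was 0.31 (unadjusted p = 0.27). Its transcript ends have 32.4% GC, and the part of the GC trend in its difference was not tested further.

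Rtp4, which encodes a receptor-transporting protein that binds viral RNA, showed the same separation. Counts of 237, 179 and 175 in control and 424, 271 and 286 in M-Δx3,4 libraries gave a log2 fold change of 0.73 (SE 0.33, unadjusted p = 0.044, adjusted p = 0.984 by edgeR). The highest of the 6 values was M-Δx3,4 replicate 1, the library in which Rsad2 was lowest of its group. In fits that left out 1 library it ran from 0.50 to 0.89, and its unadjusted p was under 0.05 without control replicate 1 (0.0173) or M-Δx3,4 replicate 2 (0.049) and from 0.063 to 0.216 without each of the other 4. With the GC trend removed it was 0.58 (unadjusted p = 0.0585). That value depends on the transcript end, which has 40.6% GC here. Another Rtp4 transcript with nearly the same counts (ENSMUST00000038423) ends at 52.6% GC. With the GC trend removed its log2 fold change was 0.87 (unadjusted p = 0.0162 by edgeR), and its groups overlapped.

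Ifitm3, an endosomal membrane protein that blocks fusion of entering viruses, was lower by a margin that all 3 M-Δx3,4 libraries shared. It is read from chr7:141009337-141009724 on the minus strand, with 1229.7, 1722 and 2016 normalized counts in control and 967, 1014 and 1016 in M-Δx3,4 libraries. The highest M-Δx3,4 library lay below the lowest control library, and the means were 1656 ± 397 and 999 ± 27.3. The log2 fold change of -0.73 (SE 0.30, unadjusted p = 0.029, adjusted p = 0.984 by edgeR) stayed between -0.90 and -0.55 in fits that left out 1 library. Its unadjusted p was 0.0053 without control replicate 1, and 0.0698 to 0.088 without any of the other 5 libraries. With the GC trend removed it was -0.61 (unadjusted p = 0.0268).

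**Figure D3:**
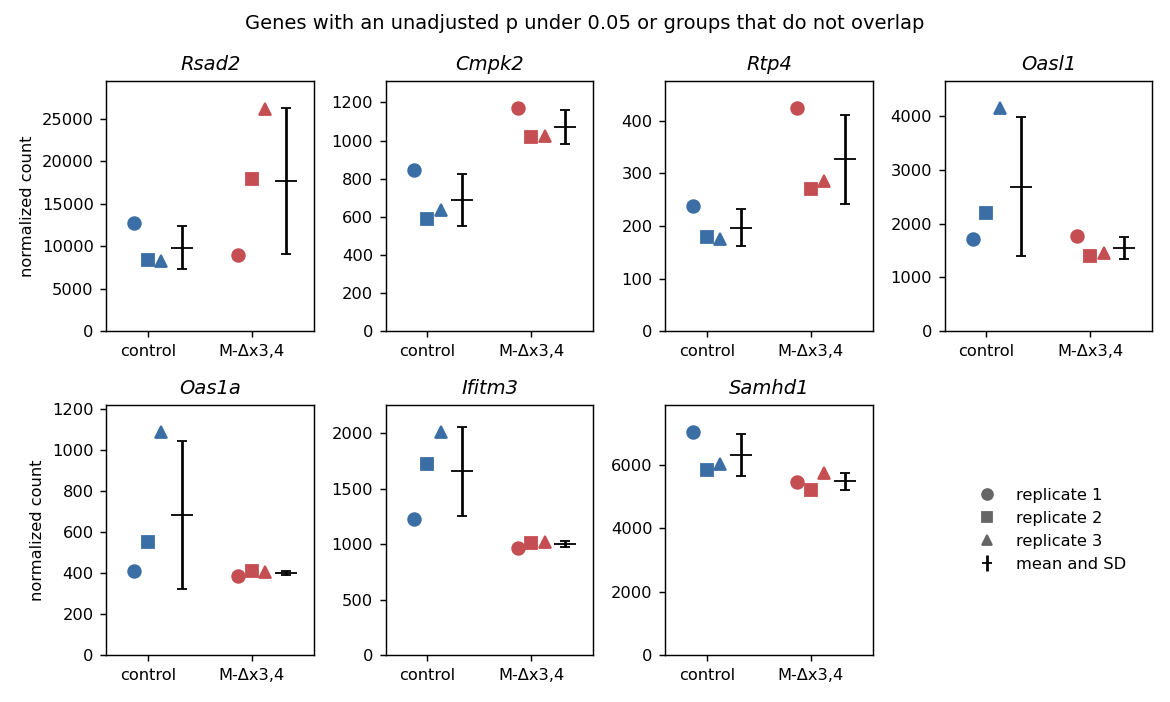
Normalized counts of the 7 genes with an unadjusted p under 0.05 or with groups that do not overlap, with a separate axis from 0 for each gene; markers give the replicate number and bars the mean and SD of 3 libraries. For Rsad2 and Oasl1 the groups overlap, and for Oasl1 and Oas1a control replicate 3 carries the high control mean.

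The OAS genes encode enzymes that answer double-stranded RNA by making 2′-5′-linked oligoadenylates, the activator of RNase L, and related proteins without that activity. Of the 5 genes, 1 had an unadjusted p under 0.05, 3 were below 0, and the median log2 fold change was -0.20. Oasl1, a regulator of Irf7 translation in mice, had 1716, 2198 and 4154 normalized counts in control and 1773, 1398 and 1457 in M-Δx3,4 libraries. Control replicate 3 was far above the other 5 libraries, and control replicate 1 lay between M-Δx3,4 libraries. The log2 fold change was -0.80 (SE 0.35, unadjusted p = 0.036, adjusted p = 0.984 by edgeR), and -0.33 (unadjusted p = 0.285) without control replicate 3. Without any 1 of the M-Δx3,4 libraries the unadjusted p was 0.0516 to 0.105. With the GC trend removed it was -0.58 (unadjusted p = 0.0523).

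Oas1a, one of the catalytically active OAS1 genes, was also highest in control replicate 3. The counts were 410.3, 551 and 1092 in control and 387, 408 and 405 in M-Δx3,4 libraries, which did not overlap although control replicate 1 came within a few counts of M-Δx3,4 replicate 2. Its log2 fold change was -0.77 (SE 0.37, unadjusted p = 0.052 by edgeR), and -0.25 without control replicate 3. Reads of Oas1a may be shared with near-identical copies in the same cluster, among them Oas1g, so its level is uncertain. Oas2, Oas3 and Oasl2 had log2 fold changes of 0.07, 0.19 and -0.20 with overlapping groups, and the Oas2 libraries all lay between 114 and 131 normalized counts.

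The IFIT proteins bind viral 5′ ends and block their translation, and their genes lie side by side on chromosome 19. None of the 4 genes in this group, which includes the kinase PKR (Eif2ak2), had an unadjusted p under 0.05, and the median log2 fold change was 0.33. Ifit1 had 2471, 1710.3 and 1377 normalized counts in control and 2312, 2248 and 2649 in M-Δx3,4 libraries, with only control replicate 1 reaching the M-Δx3,4 range. Ifit2 had 1084, 400.5 and 273 in control and 791, 467 and 1047 in M-Δx3,4 libraries. Control replicate 1 was thus the highest library of Ifit2 and control replicate 3 the lowest. The same order held for Ifit3, with 7170.1, 4196 and 1441 in control and 4114, 5048 and 6398 in M-Δx3,4 libraries, a range within the control group that contained every M-Δx3,4 library. Ifit3 has a near-identical copy, Ifit3b, with which its reads may be shared, so its level is uncertain. The log2 fold changes were 0.38 (SE 0.31), 0.39 (SE 0.46) and 0.28 (SE 0.44) for Ifit1, Ifit2 and Ifit3. Without control replicate 1 they were 0.64, 1.19 and 0.88, each with an unadjusted p under 0.05, and the Ifit3 value was -0.12 without control replicate 3. They were 0.18, 0.23 and 0.30 once the GC trend was removed, none with an unadjusted p under 0.05. Eif2ak2, which stops translation by phosphorylating eIF2α, had 238, 93.0 and 47.6 in control and 134, 82.5 and 131 in M-Δx3,4 libraries. The control spread again contained all M-Δx3,4 libraries, and its log2 fold change of -0.12 reached -0.50 without control replicate 3 and 0.72 without control replicate 1.

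Genes of RNA and DNA sensing, 5 in number, all had overlapping groups and none had an unadjusted p under 0.05. Ifih1, the gene of MDA5, which recognises long double-stranded RNA, had 898, 343 and 352 normalized counts in control and 866, 429 and 786 in M-Δx3,4 libraries. Control replicate 1 matched the high M-Δx3,4 libraries and the other control libraries lay lowest, so that the log2 fold change of 0.39 (SE 0.41) became 1.00 without control replicate 1 and 0.10 with the GC trend removed. Ddx58, the gene of RIG-I, which binds 5′-triphosphate RNA, had 630.0, 551 and 676 in control and 786, 575 and 675 in M-Δx3,4 libraries, a narrow range in both groups (log2 fold change 0.13, SE 0.30). The regulator Dhx58 (LGP2), the nucleic acid sensor Zbp1 and the DNA-binding Ifi204 had log2 fold changes of 0.04, 0.19 and -0.03. Ifi204 belongs to a family of similar genes, and its reads may not be fully separable from theirs.

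The largest group, 9 genes of ISG15 conjugation, ubiquitin ligases and ADP-ribosyltransferases with Rtp4, had 8 genes above 0 and a median log2 fold change of 0.33. Isg15 had 11813, 14697 and 7494 normalized counts in control and 8565, 17918 and 16298 in M-Δx3,4 libraries. Control replicate 3 was the lowest and M-Δx3,4 replicate 1 the next, and the groups overlapped (log2 fold change 0.33, SE 0.34). Usp18, which also restrains signalling at IFNAR, had 4058, 5211 and 4442 in control and 5052, 3697 and 3975 in M-Δx3,4 libraries and a log2 fold change of -0.11 (SE 0.28). Its 6 libraries all lay between 3697 and 5211 normalized counts. Dtx3l and Parp9, which act as a complex and lie 42.9 kb apart by their counted regions, had log2 fold changes of 0.72 (SE 0.42) and 0.54 (SE 0.37), both with overlapping groups. Their neighbour Parp14 had 0.07. The ISG15 ligase Herc6 and the tripartite motif proteins Trim25 and Trim30a had 0.36, 0.15 and 0.32, and the sign of Trim25 and Trim30a changed with the library left out. Herc6 had 0.15 and Trim30a 0.05 once the GC trend was removed.

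Among the genes of nucleotide and RNA metabolism, Samhd1, a hydrolase that empties the pool of deoxynucleotides, was the most abundant by count. Its normalized counts were 7052, 5825 and 6030.5 in control and 5474, 5218 and 5738 in M-Δx3,4 libraries, read from chr2:157097284-157099398 on the minus strand. The groups did not overlap, but the gap between control replicate 2 and M-Δx3,4 replicate 3 was small, and the log2 fold change of -0.20 (SE 0.27) had an unadjusted p of 0.467 by edgeR. Znfx1, a helicase-like sensor, had 2771, 2072 and 4106 in control and 2479, 1826 and 3168 in M-Δx3,4 libraries, overlapping, with a log2 fold change of -0.26 (SE 0.33). The exonuclease Isg20 and the RNA-editing enzyme Adar had -0.54 and -0.05. Isg20 was lowest in control replicate 3, and without that library its value was -0.90 with an unadjusted p under 0.05.

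The membrane and GTPase genes showed no separation apart from Ifitm3. Bst2 had 1814, 3069 and 2494 normalized counts in control and 1372, 3208 and 1956 in M-Δx3,4 libraries, with the lowest and the highest library both in the M-Δx3,4 group (log2 fold change -0.17, SE 0.35). Mx1, a dynamin-like GTPase that is disrupted in common laboratory strains, had 299, 114 and 195 in control and 235, 115 and 202 in M-Δx3,4 libraries (log2 fold change -0.14, SE 0.40). The M-Δx3,4 values lay within the control range, and its neighbour Mx2 had -0.32. Tor3a, an ATPase of the endoplasmic reticulum, had 2756, 3130.5 and 1587 in control and 1567, 2672 and 2611 in M-Δx3,4 libraries, again overlapping (log2 fold change -0.13, SE 0.34). The nuclear body and apoptosis genes Sp100, Daxx, Xaf1 and Phf11d had log2 fold changes of 0.23, 0.15, 0.07 and -0.39. Phf11d was the least abundant of the 42, with 10.7 to 43.0 normalized counts. Slfn2, Slfn5, Ifi35 and Ifi44 had 0.06, 0.11, -0.21 and 0.14. The region of Ifi35 overlaps that of Vat1 on the opposite strand, which also had counts, so its value may not be that of 1 gene.

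**Figure D4:**
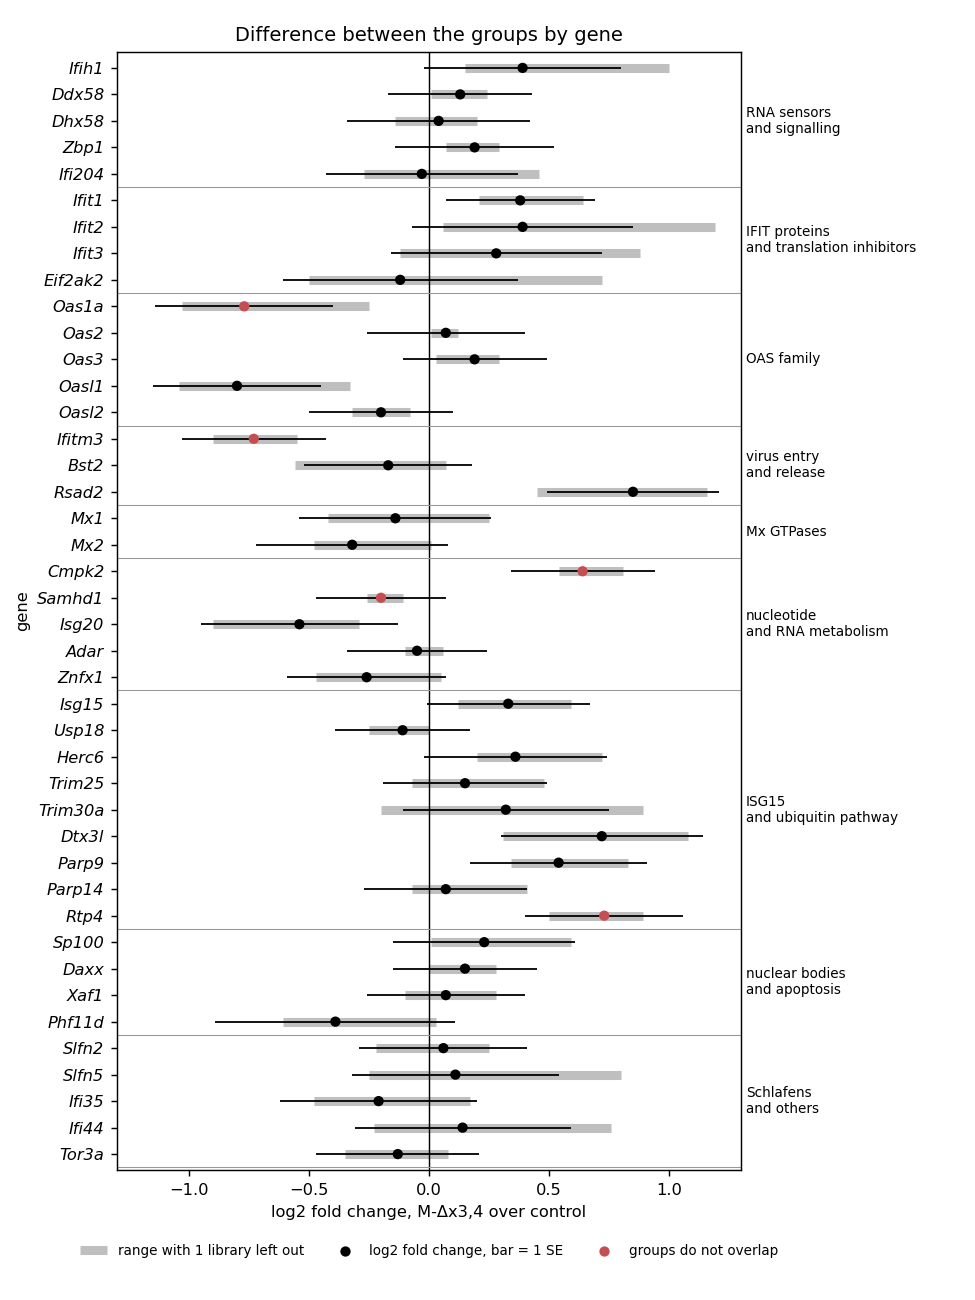
Log2 fold change of M-Δx3,4 over control for each of the 42 genes by role, with 1 SE as a black bar and the range over the 6 fits that each left out 1 library as a grey bar; red points are genes whose groups do not overlap. The grey bars of Ifit2, Eif2ak2 and Slfn5 are long, and those of Rsad2, Cmpk2, Rtp4 and Ifitm3 stay on one side of 0.

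Control replicates 1 and 3 were more than 2-fold apart for 14 of the 42 genes, while the largest log2 fold change between the groups was 0.85. Of the 41 whose mean exceeded 50 normalized counts, 11 (26.8%) were more than 2-fold higher in control replicate 1 than in control replicate 3, and 3 (7.3%) more than 2-fold lower. Over all 4723 genes past that mean, the shares were 21.8% and 16.2%. The 11 were Ifih1, Ifi204, Ifit2, Ifit3, Eif2ak2, Isg20, Trim25, Trim30a, Sp100, Slfn5 and Ifi44, and the 3 were Oas1a, Oasl1 and Ifi35. The SD of the log2 counts was larger in control than in M-Δx3,4 for 29 of the 42 genes (69.0%) and for 72.8% of all genes above the same mean. In the fits that each left out 1 library, 22 of the 42 kept their sign and 20 changed it. Leaving out control replicate 1 brought 13 of the 42 to an unadjusted p under 0.05 (31.0%), while the share among all genes went to 16.0%. The 10 higher were Ifih1, Ifit1, Ifit2, Ifit3, Rsad2, Cmpk2, Trim30a, Parp9, Rtp4 and Slfn5, and the 3 lower were Oas1a, Oasl1 and Ifitm3. Without M-Δx3,4 replicate 3 there was none.

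GC content of the last 500 bases of the transcript went with these differences. Across the 42 genes it ran from 28.2% for Ifih1 to 59.4% for Isg20, with a median of 45.8%. The 11 genes higher in control replicate 1 had a median of 37.2%, and the 3 higher in control replicate 3 one of 53.0%. Spearman's rho with GC across the 42 genes was -0.59 for the ratio of control replicate 1 to control replicate 3 and -0.52 for the log2 fold change between the groups, as a description of genes that share libraries. Over all 4716 genes the values were -0.62 and -0.47, so the relation was not particular to the 42. Rsad2 and Rtp4 had 41.0% and 40.6% GC, Oasl1 and Ifitm3 53.0% and 50.6%. With the GC trend of each library removed, 3 of the 42 had an unadjusted p under 0.05 (7.1%, against 4.68% of all genes), namely Rsad2 (0.71), Ifitm3 (-0.61) and Oas1a (-0.78). Adar, Ddx58, Ifi35, Ifi44 and Slfn5 changed sign in that fit, each with a value within 0.1 of 0. Of the 5 genes whose groups did not overlap, Rtp4 and Ifitm3 stayed apart in that fit, and Cmpk2, Oas1a and Samhd1 overlapped. For Rtp4 this held for the transcript used, while its transcript ENSMUST00000038423 overlapped in that fit. Other genes, with overlapping groups before, came apart in it: Zbp1 and Ifit1 (higher) and Oasl1 and Phf11d (lower). In all, 6 of the 42 were apart with the GC trend removed, against 9.6% of all genes.

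**Figure D5:**
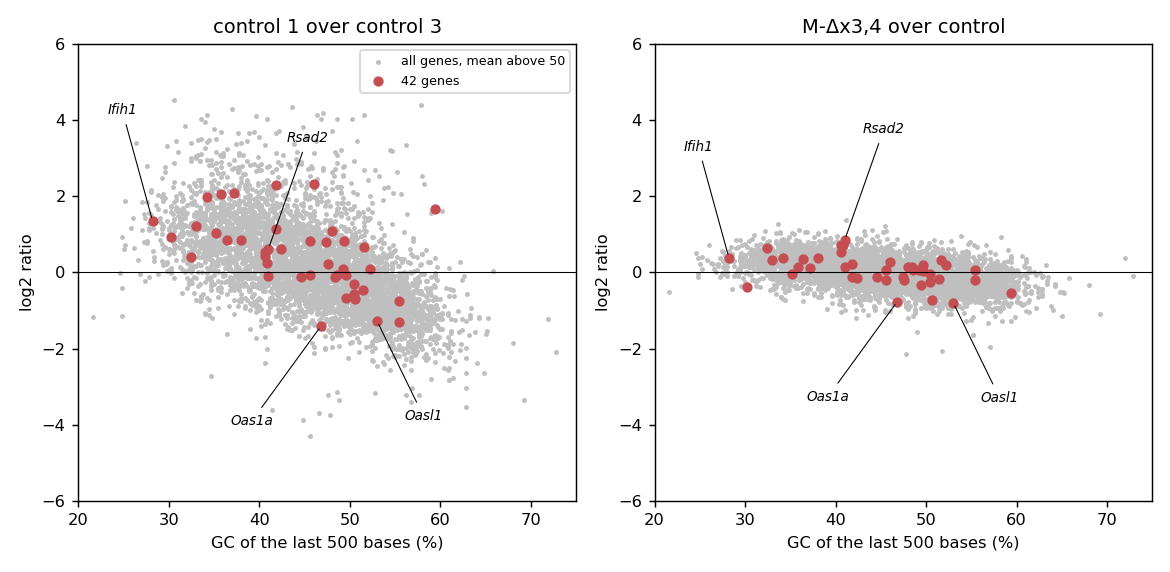
GC of the last 500 bases of the transcript against the log2 ratio of control replicate 1 to control replicate 3 (left, 1 added to each count) and against the log2 fold change between the groups (right), for 4716 genes with a mean above 50 (grey) and the 42 genes (red); 15 grey genes lie outside the axis in each panel. Both ratios decline with GC, with Ifih1 at the low and Oasl1 at the higher end of GC.

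AU-rich words, known targets of AUF1 proteins, were counted in the same windows. In the last 500 bases ATTTA was found in 23 of the 42 (54.8%) and in 49.5% of all genes tested with a window of that length. The longer word TTATTTATT was in none of the 42 and in 2.47% of all genes. The 23 genes with ATTTA had a median log2 fold change of 0.07 and the 19 without it 0.19, with Rsad2, Rtp4 and Oasl1 among those without and Ifitm3 and Oas1a among those with 1 match. The Rtp4 transcript ENSMUST00000038423, with nearly the same counts as the one used, had 1 match. These are counts of letters in a window and do not show binding.

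Other transcripts of the same genes give limited further information, since overlapping regions hold the same reads. Of 201 transcripts of the 42 genes in the table, 167 had a count, with 147 different sets of counts, and 138 were tested. There were 13 with an unadjusted p under 0.05 by edgeR, from 7 genes, against 4.13% of all transcripts tested. Of these, those of Rsad2, Oasl1 and Rtp4 repeat or nearly repeat reads given above. Those of Cmpk2, Ddx58 and Herc6 are given because of their values. A transcript of Cmpk2 ending in the same region (ENSMUST00000221826) had 519.5, 341 and 343 normalized counts in control and 800.1, 739 and 631 in M-Δx3,4 libraries, higher in every M-Δx3,4 library (log2 fold change 0.85, SE 0.32). Its region lies inside the Cmpk2 region given above, so its reads are not a separate measurement. With the GC trend removed its log2 fold change was 0.56 (unadjusted p = 0.0637 by edgeR), and its groups overlapped. A minor transcript of Ddx58 (ENSMUST00000142055) had 4.6, 7.2 and 15.1 in control and 10.8, 27.2 and 29.0 in M-Δx3,4 libraries, which overlapped. For a minor transcript of Herc6 (ENSMUST00000204843) the log2 fold change of -3.03 rests on 55.8 normalized counts in control replicate 1.

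The genes upstream of the response were also measured, in lists chosen by known function. Ifnb1, the gene of interferon beta, had 40.7, 21.5 and 34.8 normalized counts in control and 33.3, 38.8 and 44.3 in M-Δx3,4 libraries (log2 fold change 0.27, SE 0.41), overlapping. Of 14 genes of interferon induction none had an unadjusted p under 0.05, and 7 were below 0. The groups did not overlap for 2 of them, against 8.44% of all genes. These were Traf3, an adaptor upstream of IRF3, and Irf7, the amplifier of interferon genes. Traf3, named for its values, had 20.9, 15.3 and 16.2 normalized counts in control and 27.4, 28.2 and 29.0 in M-Δx3,4 libraries, higher in M-Δx3,4 (log2 fold change 0.69, SE 0.43), and 0.54 with the GC trend removed. Irf7 was lower. Its counts were 1914, 2437 and 2480.4 in control and 1722, 1369 and 1791 in M-Δx3,4 libraries (log2 fold change -0.48, SE 0.29, unadjusted p = 0.117 by edgeR). The Irf7 value was -0.24 and its groups overlapped once the GC trend was removed. The 7 genes of the receptor and ISGF3 also gave no unadjusted p under 0.05. Stat2 had 218, 247 and 168 in control and 164, 138 and 142 in M-Δx3,4 libraries, which did not overlap (log2 fold change -0.51, SE 0.33), but overlapped with the GC trend removed (-0.45). Irf9, Ifnar1 and Ifnar2 had log2 fold changes of -0.07, 0.51 and -0.15 with overlapping groups, where Ifnar1 had no library above 10 normalized counts. The 7 feedback genes had none past the threshold. Socs3, named for its values, had 204.6, 270.7 and 279.6 in control and 178.0, 132.1 and 197.2 in M-Δx3,4 libraries, which did not overlap. Its log2 fold change was -0.57 (SE 0.33), and -0.56 with the GC trend removed, where the groups stayed apart.

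Among 54 further interferon-stimulated genes that were tested, 2 had an unadjusted p under 0.05, both lower, and 35 were below 0 (median log2 fold change -0.07). Ccl5, a chemokine gene, had 3232, 2721 and 3619.7 normalized counts in control and 1977, 1770.2 and 2259.7 in M-Δx3,4 libraries, which did not overlap (log2 fold change -0.67, SE 0.29; -0.78 to -0.56 over fits without 1 library). Its value was -0.52 and the groups overlapped once the GC trend was removed. In this list the groups did not overlap for 1 gene higher and 3 lower, against 8.44% of all genes. Irf1 was lower (log2 fold change -0.43, SE 0.28), and -0.41 and still apart with the GC trend removed. Ifi203 was higher (0.84, SE 0.40), and 0.58 and overlapping with the GC trend removed. Ifitm1, a relative of Ifitm3, had 8.1, 9.2 and 45.2 in control and 6.8, 5.8 and 6.1 in M-Δx3,4 libraries, so its log2 fold change of -1.71 rests on control replicate 3 and was -0.45 without it. By list, of 20 NF-κB-driven LPS genes 1 had an unadjusted p under 0.05, Nfkb2 (-1.04), which was -0.26 without control replicate 3 and -0.55 with the GC trend removed. Together 3 of the 102 genes in these lists had an unadjusted p under 0.05, against 3.98% of all genes.

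Markers of other cells were compared because such cells can also make or answer interferon. Plasmacytoid dendritic cell markers summed to 155, 112 and 68.4 normalized counts in control and 122, 91.3 and 150.5 in M-Δx3,4 libraries, overlapping, with the defining gene Siglech at 0 to 3.8. B cell markers summed to 301 to 359 in control and 143 to 165 in M-Δx3,4 libraries, with Igkc the largest part of it (59.2 to 252), while Pax5 was at no more than 1.2. Igkc was lower in every M-Δx3,4 library, whereas Cd79b had 20.9, 26.6 and 18.6 in control and 33.3, 37.9 and 16.0 in M-Δx3,4 libraries, overlapping (log2 fold change 0.39). Conventional dendritic cell markers summed to 193 to 377 in control and 84.1 to 109 in M-Δx3,4 libraries, with H2-Aa the largest part of it (45.6 to 244) and Flt3 at 0 in 5 libraries. H2-Aa (-2.07) and Cd74 (-1.57) were lower with groups that did not overlap. H2-Ab1 (-0.83) and H2-Eb1 (-1.06) were lower with overlapping groups. Itgax (-0.06), Ccr7, Zbtb46 and Xcr1 overlapped between the groups, with no library above 16.2 normalized counts. Neutrophil markers overlapped (388 to 695 against 482 to 728), T and NK cell markers were at 10.4 to 45.3 with 6 of 8 genes without a count, mast cell and basophil markers were at 0 to 1.2 with 4 of 5 genes without a count, and fibroblast markers were at 1.9 to 48.8. Lyz2, the macrophage gene whose locus carries Cre in M-Δx3,4 cells, had 1992, 1788 and 2201 in control and 1342, 882 and 968 in M-Δx3,4 libraries. The B cell and conventional dendritic cell sums, with Igkc and H2-Aa as their largest parts, were thus lower in M-Δx3,4 libraries. Ifitm3, Oas1a and Samhd1 were lower in the same libraries, and the part of those sums in these results was not tested. In bulk RNA, fewer cells of a type and less RNA per cell cannot be told apart.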

How the data were processed

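RNA of 3 control and 3 M-Δx3,4 BMDM samples was sequenced from the 3′ ends (QuantSeq on Ion Torrent chemistry). Per the labels and the study's methods, the authors mapped reads to mm10 with TopHat2 2.1.1 and then Bowtie2, and counted them on extended 3′ UTR regions of Ensembl transcripts with metaseqR2. The values used are the deposited raw counts per region, and the deposited TPM values, which the authors made from counts normalized by DESeq2 and divided by region length. A further 18 per-sample columns and the authors' own fold changes and p-values were not used.

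The regions of a transcript were summed, scaled by edgeR's median-of-ratios factors, and kept when 1 library exceeded the median of all normalized counts (4.89). The groups were compared in edgeR (4.0.16, under R 4.3.3) by its quasi-likelihood test, and p-values were adjusted by Benjamini-Hochberg over the 32475 transcripts. Standard errors are the log2 fold change divided by the root of the F statistic. The procedure was tested on simulated data. No library in the simulated comparison of groups was made to differ from its own group. That test therefore does not bear on the spread between control replicates 1 and 3. Intervals from counts would cover counting error only, since no molecular identifiers are described. Scripts ran in Python 3.11.15 with scipy 1.17.1. GC content and AU-rich words come from GENCODE vM21, promoters from RefSeq GRCm38.p6.

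The 42 genes and all lists were chosen with earlier results of these data known. Values in every library are given for genes with an unadjusted p under 0.05, genes whose groups do not overlap, the 10 most abundant genes, and a fixed set of well-known genes (Ifit1, Ifit2, Ifit3, Isg15, Rsad2, Usp18, Mx1, Oasl1, Ifih1, Ddx58, Eif2ak2, Bst2, Ifitm3). Other genes of the pathway are named when their unadjusted p was under 0.05, or as Ifnb1, Ifnar1, Ifnar2, Stat2, Irf9 and Irf7. Traf3, Socs3, Irf1 and Ifi203 are named because their groups do not overlap. Some items are not reported here. Alternatives were TMM and library-total scaling, DESeq2 1.42.0, limma-voom (limma 3.58.1), 3 other filters, a table of 1 transcript per gene, a block for the replicate number, each library left out and, chosen after the data were seen, the GC trend removed.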

Additional observations from a re-analysis of the deposited data

How the results depend on the processing

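Of the 42 genes, the number with an unadjusted p under 0.05 was 4 in the fit reported, 5 under TMM, library totals, limma-voom, no filter, filterByExpr, 10 counts in every library and 1 transcript per gene, 6 under DESeq2, 3 with the GC trend removed, and from 0 to 13 with 1 library left out, highest without control replicate 1. With the replicate block it was 2 (4.8%, Ifitm3 and Rsad2), also with the GC trend removed, against 2.82% and 4.26% of all genes. The share of all genes was 3.98% in the fit reported and 3.2% to 3.97% in the fits with 5. It was 3.01% under DESeq2, 4.68% with the GC trend removed and 2.42% to 16.03% with 1 library left out, highest without control replicate 1. The labels do not say whether same-numbered libraries are paired. Deviations of same-numbered libraries correlated at -0.21, 0.54 and -0.31, and control replicate 1 correlated best with M-Δx3,4 replicate 3 (0.54). With so few libraries these correlations cannot decide whether the numbers pair them. The causes of these changes were not tested, except that filters change which transcripts are fitted. None of the 42 had an adjusted p under 0.05 in any fit. Their smallest adjusted p was 0.172, without control replicate 1, and at least 0.832 in the others.

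Transcripts with an unadjusted p under 0.05 numbered 1340, against 2148 with no filter, 749 by filterByExpr, 628 with at least 10 counts in every library, 465 with 1 transcript per gene and 771 to 4572 with 1 library left out. Genes, by 1 transcript each, numbered 473, against 724, 270 and 238 under the same 3 filters and 274 to 1822 with 1 library left out. Non-overlapping genes among the 42 numbered 5, and 6 to 15 with 1 library left out, when 15.1% to 32.8% of all genes did not overlap; the 15 came without control replicate 1, where the share of all genes was 32.8%. Of the 102 pathway genes 3 were past the threshold, against 1 by limma-voom, 1 with the replicate block, 1 with the block and the GC trend removed, and 0 to 18 with 1 library left out. The shares of all genes were 3.23%, 2.82%, 4.26% and 2.42% to 16.03% in those fits, and the 18 came without control replicate 1, where that of all genes was highest. The median of the 42 ran from -0.01 to 0.17 over libraries left out, and the p37 transcript of Hnrnpd from -3.02 to -1.69.

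Signs that turned with all libraries kept were Ifi204 (0.04 by limma-voom, 0.03 with the block), Eif2ak2 (0.16, 0.12, and 0.00 with the block and the GC trend removed), and, with the GC trend removed, Ddx58 (-0.04, and -0.03 with the block), Adar (0.05 in both), Slfn5 (-0.01), Ifi35 (0.06) and Ifi44 (-0.02). With 1 library left out, signs turned over these ranges: Dhx58 -0.14 to 0.20, Ifi204 -0.27 to 0.46, Ifit3 -0.12 to 0.88, Eif2ak2 -0.50 to 0.72, Bst2 -0.56 to 0.07, Mx1 -0.42 to 0.25, Mx2 -0.48 to 0.01, Adar -0.10 to 0.06, Znfx1 -0.47 to 0.05, Trim25 -0.07 to 0.48, Trim30a -0.20 to 0.89, Parp14 -0.07 to 0.41, Daxx -0.00 to 0.28, Xaf1 -0.10 to 0.28, Phf11d -0.61 to 0.03, Slfn2 -0.22 to 0.25, Slfn5 -0.25 to 0.80, Ifi35 -0.48 to 0.17, Ifi44 -0.23 to 0.76 and Tor3a -0.35 to 0.08.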
